A study of Rattus norvegicus with 30 samples.

Results

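The interleukin-1 (IL-1) and tumour necrosis factor (TNF) systems were followed through 10 genes, chosen by the gene name the array gives their probes: the ligands Il1a, Il1b, Il18 and Tnf, the receptor antagonist Il1rn, the receptors Il1r1, Il1rap, Tnfrsf1a and Tnfrsf1b, and the decoy receptor Il1r2. The array names 35287 genes or transcripts in all, and the 10 members were found on 14 probes. The 30 single-colour Agilent rat arrays fell into 10 groups of 3. They held proximal sciatic nerve (SN) or L4-6 dorsal root ganglia (DRG) from adult male Sprague-Dawley rats at 0, 1, 4, 7 and 14 d after a length of the left sciatic nerve had been cut out at mid-thigh. The 0 d groups served as controls, all groups shared the strain and the anaesthesia, and no age was given. The rats were assigned to groups of 6, and the study calls the arrays of a time point biological replicates, but the sources used here do not state which rats an array holds. The p-values measure the spread between arrays.

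Interleukin-1 is an alarm cytokine. Il1a and Il1b encode its agonists, which bind the receptor encoded by Il1r1 and then recruit the accessory protein encoded by Il1rap to start signalling through MyD88 towards NF-kappaB. The antagonist encoded by Il1rn occupies the same receptor without starting a signal, and the decoy receptor encoded by Il1r2 binds the ligand but lacks a signalling domain. Il18 encodes a relative of interleukin-1 that, like the Il1b product, is cut to its active form by caspase-1. Tnf encodes a cytokine read by a broadly expressed receptor with a death domain (Tnfrsf1a) and by a receptor without one, found mostly on immune and endothelial cells (Tnfrsf1b). In injured peripheral nerve these cytokines are known to come from Schwann cells and from recruited macrophages and neutrophils, and in the ganglia they are known for acting on sensory neurons and their satellite glia.

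Expression is given as the normalized signal, the log2 scanner intensity of a probe minus the 75th percentile of its array. Such signals compare one probe between arrays and never one gene with another. A change was called when its adjusted p in limma was under 0.05 and its fold change was over 2. A difference between tissues in the size of a change was called on the adjusted p alone. Where a gene has 2 probes, the brighter one stands for it and the other is given beside it. All comparisons of a tissue with 0 d share the same 3 arrays on day 0, and all arrays on day 0 were scanned on another date and on other slides than the later days, so that in these comparisons the day and the slide or scan cannot be told apart. Neighbouring later days of a tissue shared no slide either, and in SN day 14 was scanned on another date than day 7. Steps between days, fitted within a tissue, carry the same limit.

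Probes of Il1r2, Il1r1 and Il1rn that cross an intron are shown here because they measure joined exons, and because Il1r2 was the member whose change differed between the tissues with both signs. All 4 match the plus strand of build rn4, and no letters are capitalised. The Il1r2 probe spans chr9:39316654-39319494, the first and second Il1r1 probes span chr9:39462421-39464677 and chr9:39472634-39473165, and the second Il1rn probe spans chr3:2609497-2610531.
Il1r2 probe: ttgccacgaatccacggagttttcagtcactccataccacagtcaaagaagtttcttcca
Il1r1 first probe: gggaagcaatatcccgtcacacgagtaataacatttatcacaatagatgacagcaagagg
Il1r1 second probe: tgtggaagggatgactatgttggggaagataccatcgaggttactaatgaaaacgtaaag
Il1rn second probe: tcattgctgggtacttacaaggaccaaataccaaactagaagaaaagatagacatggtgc

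Promoter sequence is shown for Il1a, Il1b and Tnf, the ligands among the 9 members with an entry in the RefSeq promoter table (build GRCr8) that carry the TATA box letters TATAAA on the gene strand close to the start. Il1r2 had no entry. The windows run over the 100 bases before the start, at chr3:136990018-136990117 (minus strand), chr3:137036582-137036681 (minus strand) and chr20:3626585-3626684 (plus strand), with TATAAA in capitals.
Il1a: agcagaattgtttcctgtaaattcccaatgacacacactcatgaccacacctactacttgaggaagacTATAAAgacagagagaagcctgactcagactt
Il1b: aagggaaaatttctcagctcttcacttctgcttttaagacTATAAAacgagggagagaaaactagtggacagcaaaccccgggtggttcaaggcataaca
Tnf: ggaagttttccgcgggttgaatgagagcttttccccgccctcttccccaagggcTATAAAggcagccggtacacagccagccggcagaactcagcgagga
Over the 250 bases before the start and on either strand, TATAAA was found in 4 of the 9 genes, the fourth being Il1rn, against 12.9% of all 33469 promoters in the table. The NF-kappaB consensus was found in Il1r1 and Il1rap, 2 of the 9 genes, against 6.33% of all promoters. The AP-1 letters TGANTCA, which do not overlap TATAAA in these genes, were found in Il1a and Tnfrsf1b, against 6.34% of all promoters. These matches describe letters, and their absence from a window says nothing of the factor.

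In SN, 8 of the 10 members were called higher on day 1 than on day 0, against 18.6% of all 35157 probes tested. Il1rap and Tnfrsf1a were the others. The count was 7 on day 4 (15.9% of all probes called higher), 7 on day 7 (18.1%) and 4 on day 14 (14.3%). No member was called lower on any day, where 3.43% (1 d), 6.78% (4 d), 6.81% (7 d) and 5.46% (14 d) of all probes were. The median log2 change of the 10 members was 1.80, 1.31, 1.55 and 0.90 on the 4 days, beside 0.11, 0.15, 0.15 and 0.16 over all probes tested. In DRG 1 member was called higher on day 1 (7.44% of 34968 probes), 5 on day 4 (6.04%), 6 on day 7 (6.58%) and 6 on day 14 (13%), again with none called lower (0.169%, 0.506%, 0.326% and 0.46% of all probes). The median change of the members in DRG was 0.52, 0.98, 1.39 and 1.30. Il1a and Tnf were well above background on no array of day 0 in either tissue and passed the filter through later days. Il1a is in the SN counts of days 1, 4 and 7 and in all DRG counts. Tnf is in those of SN on days 1 and 7 and of DRG on day 14. On those days of Tnf the bounds of both genes, given below, do not reach the fold limit, and the calls rest on signals near background. For any gene, an adjusted p printed beside a bound is that of the limma fit on the signals themselves. It does not test the bound. The bulk of a tissue was measured, so that more cells of a type and more RNA per cell cannot be told apart.

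Il1rn, the antagonist, had the largest change of any member in SN. Its signals were −1.62, −1.36 and −1.93 on day 0 and 3.21, 2.49 and 2.40 on day 1, followed by 1.54, 1.77 and 2.24 on day 4, 1.72, 1.82 and 1.34 on day 7, and 1.36, 0.81 and 1.49 on day 14. All later arrays lay far above those of 0 d. The rise on day 1 was 20.2-fold (log2 4.33, SE 0.26, adjusted p = 2.23e-07), and on day 14 Il1rn was still 7.25-fold higher (adjusted p = 3.55e-06). The step from 1 d to 4 d was −0.85 on the log2 scale (SE 0.26, adjusted p = 0.0245), which is under the fold limit. Without replicate 3 of SN on day 4 it was −1.04 (adjusted p = 0.0179) and counted as a fall.

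In DRG the same probe of Il1rn moved later and less. Its signals were −2.66, −2.39 and −2.13 on day 0 and −2.01, −2.06 and −2.11 on day 1, which do not overlap but lie close together. They were −1.27, −1.21 and −1.03 on day 4, −1.0, −0.62 and −0.97 on day 7, and −0.52, −0.73 and −0.40 on day 14. The rise was 2.34-fold on day 4 (adjusted p = 0.000124), 2.88-fold on day 7 (adjusted p = 1.86e-05) and 3.59-fold on day 14 (adjusted p = 3.73e-06).

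The second Il1rn probe, printed above, gave a like picture in SN and none in DRG. In SN it was not well above background on any array on day 0, and its signals were −3.81, −4.65 and −4.36 on day 1, at least 4.38-fold higher than on day 0 (adjusted p = 6.22e-08). From 4 d on it lay lower, with −5.72, −5.81 and −5.38 on day 4, a fall of 1.36 from 1 d on the log2 scale (adjusted p = 0.000642). In DRG it was not well above background on any of the 15 arrays and was not tested, so that the rise of Il1rn in DRG rests on the first probe.

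Il1b was highest in SN on day 1. Its signals were −1.29, −1.99 and −0.89 on day 0, 1.68, 0.64 and 1.07 on day 1, −0.13, −0.14 and 0.55 on day 4, 0.32, 0.58 and 0.63 on day 7, and 0.69, −0.29 and 0.26 on day 14. No later array overlapped those of 0 d. The rise was 5.74-fold on day 1 (log2 2.52, SE 0.34, adjusted p = 5.45e-05), 2.80-fold on day 4, 3.73-fold on day 7 and 3.05-fold on day 14, with adjusted p of 0.00234, 0.000411 and 0.00162 on the last 3 days.

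The step of Il1b from 1 d to 4 d in SN was a fall of 1.04 on the log2 scale (SE 0.34, adjusted p = 0.0309). It was no longer called without replicate 1 (−0.76, adjusted p = 0.121) or 3 (−1.07, adjusted p = 0.0641) of 1 d, or without replicate 1 (−0.92, adjusted p = 0.087) or 2 (−0.92, adjusted p = 0.0899) of 4 d. The second Il1b probe, spotted 10 times on each array, fell by 1.01 (adjusted p = 0.03). On all 4 days the second probe was also called higher than on day 0 in SN, with 7.33-fold on day 1.

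In DRG, Il1b lay at −3.65, −3.14 and −1.76 on day 0, at −2.24, −2.29 and −2.91 on day 1, at −1.21, −2.10 and −1.71 on day 4, at −0.78, −0.47 and −0.97 on day 7, and at −0.90, −1.68 and −1.49 on day 14. The 3 arrays of 0 d were widely spread, and replicate 3 lay above all arrays of 1 d and within the range of 4 d. Il1b was 4.32-fold higher on day 7 (adjusted p = 0.00334), where all arrays lay above those of 0 d. The 2.82-fold rise on day 14 (adjusted p = 0.0131) was not called without replicate 1 of 0 d (log2 1.10, adjusted p = 0.0527) or replicate 1 of 14 d (1.27, adjusted p = 0.0531). The 2.26-fold rise on day 4 stood at the threshold (adjusted p = 0.0466) and was lost on leaving out any of 12 of the 15 DRG arrays, with adjusted p up to 0.166, the value without replicate 1 of 0 d (log2 0.78). The second probe gave 2.91-fold on day 4 (adjusted p = 0.0215) and 4.86-fold on day 7 (adjusted p = 0.00334).

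Il18 was highest in SN on days 4 and 7. Its signals there went from −1.03, −1.01 and −0.67 on day 0 to 1.04, 0.61 and 0.95 on day 1 and to 1.45, 1.49 and 1.91 on day 4. They were 1.78, 1.87 and 1.43 on day 7 and 0.86, 0.76 and 1.08 on day 14. The rise was 3.41-fold on day 1 (adjusted p = 4.94e-06), 5.74-fold on day 4 (2.29e-07), 6.06-fold on day 7 (1.88e-07) and 3.49-fold on day 14 (4.09e-06), each given with its adjusted p. The levels of 4 d and 7 d were the highest and overlapped (difference 0.08, SE 0.17, adjusted p = 0.781).

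In DRG, Il18 was at −2.32, −2.11 and −1.38 on day 0 and at −2.05, −1.89 and −1.90 on day 1, which overlap. It then lay at −1.21, −1.07 and −0.90 on day 4, −0.47, −0.34 and −0.46 on day 7, and −0.48, −0.35 and −0.18 on day 14. It was 2.87-fold higher on day 7 (adjusted p = 0.000176) and 3.04-fold higher on day 14 (adjusted p = 8.68e-05). On day 4 the change was 0.88 (SE 0.19, adjusted p = 0.00558), under the fold limit, and 1.16 (adjusted p = 0.000116) without replicate 3 of 0 d, where it was called. The second Il18 probe was called on the same days as the first in both tissues.

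Il1a was not well above background on any of the 6 arrays of 0 d, so that its rises are bounds. Each adjusted p beside them is that of the fitted change and does not test the bound. In SN its signals were −5.28, −5.86 and −5.27 on day 1, −5.20, −5.21 and −4.87 on day 4, and −5.80, −5.71 and −6.02 on day 7, all well above background. That is at least 1.91-fold higher on day 1 (adjusted p = 6.62e-05), at least 2.48-fold on day 4 (adjusted p = 2.14e-05) and at least 1.47-fold on day 7 (adjusted p = 0.000162). On day 14 it was −8.29, −8.11 and −6.23, well above background on replicate 3 only. The fitted change against 0 d on day 14 (0.90, adjusted p = 0.0784) was not called, though it was without replicate 1 (1.28, adjusted p = 0.021) or replicate 2 (1.19, adjusted p = 0.0405) of 14 d.

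In DRG, Il1a was the only member called higher on day 1, and it was called on all later days. Its signals were −4.75, −4.74 and −4.68 on day 1, −4.42, −4.46 and −4.43 on day 4, −4.51, −4.17 and −4.63 on day 7, and −5.55, −4.96 and −5.13 on day 14, all well above background. The rise was at least 2.16-fold on day 1 (adjusted p = 0.000137), at least 2.63-fold at both 4 d and 7 d, and at least 1.54-fold on day 14 (adjusted p = 0.000221). From 7 d to 14 d the fitted step of Il1a in SN was −1.70 (SE 0.41, adjusted p = 0.0226), with 2 of the 3 arrays of 14 d not well above background, so that its size was not measured. In DRG the step was −0.78 (SE 0.37, adjusted p = 0.315). The step in SN was no longer called when any 1 of the 3 arrays of 7 d or replicate 1 or 2 of 14 d was left out, with log2 changes from −1.32 to −1.78 and adjusted p from 0.055 to 0.0919. With normexp background correction and quantile normalization together, the changes of this dim probe were all under the fold limit, between 0.36 and 0.86 on the 7 tissue and day combinations where it was called.

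Tnf, too, was above background on no array of 0 d in either tissue, and it stayed dim throughout. In SN its signals were −5.42, −5.71 and −5.60 on day 1, −6.43, −6.16 and −5.86 on day 4, −5.75, −5.72 and −5.66 on day 7, and −6.25, −6.41 and −5.76 on day 14. The rise was called on day 1 (at least 1.77-fold, adjusted p = 6.68e-05) and on day 7 (at least 1.62-fold, adjusted p = 0.00012). On day 4 (0.89, adjusted p = 0.00223) and 14 d (0.91, adjusted p = 0.00241) the fitted changes were under the fold limit. Each was called when replicate 3 of 0 d was left out (1.01 on day 4 and 1.02 on day 14). So it was without replicate 1 of 4 d (1.03) and without replicate 2 of 14 d (1.04).

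In DRG, Tnf was well above background on 2 arrays on day 1, 1 on day 4, 3 on day 7 and 2 on day 14. The only called rise, on day 14 (fitted log2 1.09, SE 0.27, adjusted p = 0.00697), gave no bound above 1. It was not called without replicate 1 of 0 d (0.73, adjusted p = 0.0143) or replicate 3 of 14 d (0.95, adjusted p = 0.0324). On day 7 the change was 0.92 (adjusted p = 0.0259) and became a call, at 1.13, 1.08 and 1.00, without replicate 2 or 3 of 0 d or replicate 3 of 7 d in turn. After quantile normalization, the change of Tnf was called on no day in either tissue (0.54 on day 1 and 0.58 on day 7 in SN, 0.41 on day 14 in DRG).

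**Figure D1:**
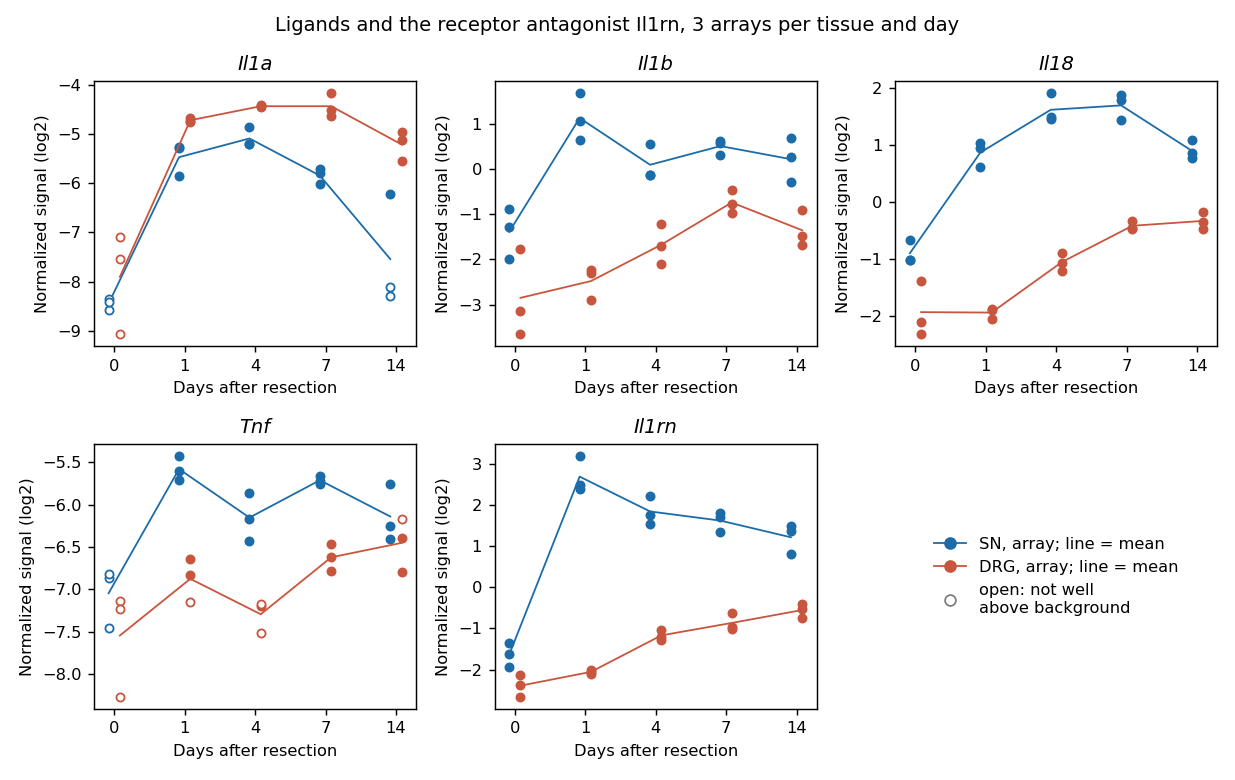
Normalized signal (log2) of the 4 ligands and of Il1rn on each array, by day after resection, in SN (blue) and DRG (red), with a line through the means of 3 arrays. Days are evenly spaced, open circles are arrays on which the probe was not well above background, and the axis differs between panels. Il1rn peaked on day 1 in SN and climbed to 14 d in DRG, while Il1a went below −8 on 2 SN arrays on day 14 and stayed above −5.6 on all 3 DRG arrays.

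The decoy receptor Il1r2 was called higher than on day 0 on day 1 in SN, and from 4 d on in DRG. In SN its signals were −1.96, −2.20 and −1.82 on day 0 and 1.19, 0.69 and 1.30 on day 1, but −1.62, −1.52 and −1.57 on day 4, −1.47, −1.30 and −1.51 on day 7, and −1.33, −1.41 and −1.31 on day 14. The rise on day 1 was 8.31-fold (log2 3.06, SE 0.14, adjusted p = 4e-08). From 1 d to 4 d Il1r2 fell by 2.63 (SE 0.14, adjusted p = 6.16e-07), to a level 0.43 above 0 d (adjusted p = 0.0212), and stayed within 0.65 of 0 d thereafter.

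In DRG the signals of Il1r2 were −3.64, −4.05 and −4.21 on day 0 and −3.37, −2.83 and −3.20 on day 1, a difference of 0.83 (SE 0.18, adjusted p = 0.00748) that is under the fold limit. They then stood at −0.93, −0.99 and −0.51 on day 4, −0.72, −0.51 and −0.84 on day 7, and −0.80, −0.98 and −0.78 on day 14. The rise was 8.90-fold on day 4 (adjusted p = 2.31e-07), 9.70-fold on day 7 (1.57e-07) and 8.66-fold on day 14 (2.99e-07), each with its adjusted p. The step from 1 d to 4 d was 2.32 (SE 0.18, adjusted p = 1.4e-05), the only member's step called higher between those days in DRG, against 1.52% of all probes. Leaving out any 1 array changed no call of Il1r2.

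Il1r2 is known from neutrophils, and 9 of 11 neutrophil marker genes were called higher in SN on day 1 (18.6% of all probes). On days 4, 7 and 14, when Il1r2 was not called in SN, 6, 5 and 6 of the 11 were called higher. The shares of all probes were 15.9%, 18.1% and 14.3%, and 1 marker was called lower on day 4. The mean signal of the list lay between −5.11 and −4.68 on the arrays of 0 d, between −2.26 and −1.72 on day 1, and between −3.52 and −3.21 on day 4, and Elane, Ltf and Mmp8 were not well above background on any SN array of 0 d. Over the 15 SN arrays the named genes with the pattern most like that of Il1r2, among 14232, were S100a8 (Pearson r = 0.989) and S100a9 (r = 0.971), the subunits of calprotectin and both on the marker list. S100a8 rose by 5.26 and S100a9 by 4.51 on the log2 scale on day 1. The part of these cells in the rise of Il1r2 in SN was not tested.

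In DRG the picture was another. On day 4, where Il1r2 was 3.15 higher on the log2 scale than on day 0, S100a8 differed by 0.29 (SE 0.39, adjusted p = 0.59) and S100a9 by 0.12 (SE 0.37, adjusted p = 0.825). Both were already brighter in DRG than in SN on day 0. Their mean signals were 0.59 (SD 0.88) and 0.27 (SD 0.79) in DRG, beside −2.73 and −2.31 in SN. A small change in DRG therefore does not mean a low level of these markers. Only Csf3r, the receptor of granulocyte colony-stimulating factor, was called higher among the 11 markers (1.16, SE 0.31, adjusted p = 0.0167). Csf3r was well above background on 1 of 3 arrays of 0 d and was higher on the other days too, by 1.88 on day 1, 1.72 on day 7 and 1.91 on day 14 (adjusted p = 0.00183, 0.00477 and 0.000805). The mean signal of the list lay between −3.80 and −2.52 on the DRG arrays of 0 d and between −3.20 and −3.10 on day 4, within that range. Of the 11 markers, 1 was called higher on day 1, namely Csf3r. With it were Cxcr2 and Fcnb on day 7, 3 in all, and Cxcr2, Ltf and S100a8 (1.21, adjusted p = 0.0266) on day 14, 4 in all. Of 11 macrophage markers, 4 were called higher on day 4 in DRG, and their mean signal went from between −1.05 and −0.36 on day 0 to between 0.11 and 0.30. The part of macrophages in the rise of Il1r2 in DRG was not tested.

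**Figure D2:**
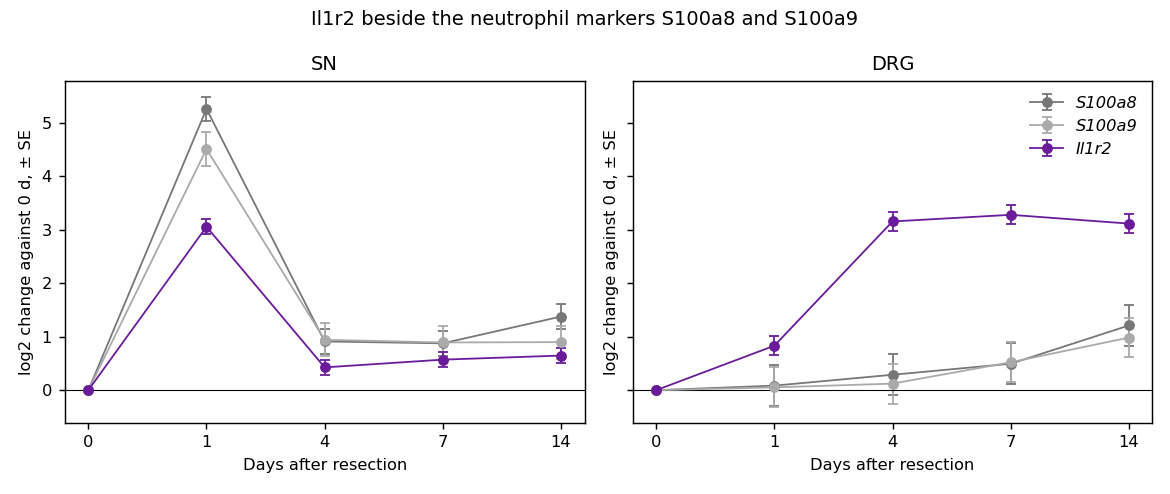
Change against 0 d (log2, limma estimate with SE over 3 arrays per group) of Il1r2 (purple) and of the neutrophil markers S100a8 and S100a9 (grey) by day after resection, in SN on the left and DRG on the right, with days evenly spaced and 0 d set to 0. In SN all 3 genes were highest on day 1, and in DRG Il1r2 was more than 3 higher from 4 d on while S100a8 and S100a9 were at most 1.21 higher. The levels on day 0 are not drawn. For S100a8 and S100a9 the mean signals there were 0.59 and 0.27 in DRG and −2.73 and −2.31 in SN. S100a8 and S100a9 were the genes most like Il1r2 over these SN arrays, so that their likeness in SN follows from the choice. Csf3r, another marker of the list that is not drawn, was between 1.16 and 1.91 higher in DRG on the 4 days. In SN the mean signal of Csf3r was −5.84 on day 0 and −1.67, −2.36, −2.91 and −3.78 on the later days. That of Cxcr2, also on the list, was −6.83 and then −3.38, −5.74, −5.44 and −5.97.

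Il1r1, the signalling receptor of interleukin-1, rose on all 4 days in SN. Its signals were −4.52, −4.63 and −4.80 on day 0, −3.09, −2.75 and −2.64 on day 1, −3.78, −3.58 and −3.56 on day 4, −2.91, −2.78 and −2.97 on day 7, and −3.31, −3.37 and −3.43 on day 14. The order had 7 d and 1 d on top, 14 d and 4 d below them and 0 d at the bottom, with 1 d and 7 d overlapping and the rest apart. The rise was 3.53-fold on day 1 (adjusted p = 3.45e-07), 2.01-fold on day 4 (1.51e-05), 3.39-fold on day 7 (2.24e-07) and 2.43-fold on day 14 (3.65e-06), each given with its adjusted p. The dip between 1 d and 7 d was −0.81 and then 0.75 on the log2 scale (SE 0.12, adjusted p = 0.000342 and 0.00197), both under the fold limit. The 4 d value lay at the fold limit, and its log2 change was 0.93, 0.98 and 0.97 without replicate 3 of 0 d and replicates 2 and 3 of 4 d.

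The second Il1r1 probe was not well above background in SN on day 0 and was at least 2.78-fold higher on day 1 (adjusted p = 2.99e-06), but showed no such dip on day 4 (−0.30, SE 0.16, adjusted p = 0.149). In DRG the first probe was well above background on 1 of 3 arrays on day 0 (−5.33, −5.47 and −5.80) and lay at −4.63, −4.45 and −4.30 on day 4 and −4.30, −4.15 and −4.34 on day 7. It was called higher on day 4 (2.10-fold, adjusted p = 0.000128) and on day 7 (2.41-fold, adjusted p = 3.13e-05). The call on day 4 was lost without replicate 3 of 0 d (0.94) or replicate 3 of 4 d (0.99). The second probe was called on no day in DRG (0.86 on day 4, adjusted p = 0.0312). After quantile normalization Il1r1 was under the fold limit on day 4 and 14 d in SN (0.62 and 0.83) and on day 4 and 7 d in DRG (0.64 and 0.84).

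Il1rap, the accessory chain, had closely spaced replicates in SN and was called there on 1 day. Its signals were −0.38, −0.35 and −0.38 on day 0, 0.34, 0.31 and 0.48 on day 1, 0.81, 0.90 and 0.79 on day 4, 0.40, 0.33 and 0.40 on day 7, and −0.06, −0.01 and −0.05 on day 14. Only 1 d and 7 d overlapped. The rise was called on day 4, the highest level (2.31-fold, adjusted p = 4.95e-08), and the changes of 0.75 on day 1 (adjusted p = 2.3e-06) and 0.75 on day 7 (adjusted p = 1.37e-06) were under the fold limit. In DRG all 15 signals lay between −1.01 and −0.55, and the changes were −0.07, −0.07, 0.09 and 0.02 on the 4 days, with 95% intervals that stayed between −0.35 and 0.37.

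Tnfrsf1a, the death-domain receptor of TNF, changed by less than 2-fold on every day in both tissues. In SN it was at 2.82, 3.24 and 3.14 on day 0 and 3.72, 3.82 and 3.98 on day 1, and in DRG at 1.98, 2.31 and 2.21 on day 0 and 2.97, 2.84 and 2.86 on day 1. In both tissues the arrays of 1 d lay above all others of the same tissue. The change on day 1 was 0.77 in SN (SE 0.12, adjusted p = 0.000194) and 0.72 in DRG (SE 0.12, adjusted p = 0.00143), and from 4 d on it was between 0.24 and 0.40 in either tissue.

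Tnfrsf1b, the receptor without a death domain, was at −0.21, 0.12 and −0.39 in SN on day 0, 1.31, 0.67 and 1.00 on day 1, 1.00, 1.20 and 1.53 on day 4, 1.14, 1.34 and 1.09 on day 7, and 0.83, 0.37 and 1.00 on day 14. The rise was 2.23-fold on day 1 (adjusted p = 0.000453), 2.64-fold on day 4 (adjusted p = 9.74e-05) and 2.54-fold on day 7 (adjusted p = 0.000134). The call on day 1 was lost without replicate 1 of 1 d (log2 1.00, just under the limit). On day 14 the change was 0.89 (adjusted p = 0.00303), and it passed the fold limit without replicate 2 of 0 d (1.03) or of 14 d (1.07). In DRG the signals were −2.24, −2.14 and −1.93 on day 0, −2.32, −2.23 and −2.08 on day 1, −1.53, −1.39 and −1.24 on day 4, −1.14, −1.25 and −1.46 on day 7, and −1.30, −1.42 and −1.07 on day 14. All arrays from 4 d on lay above those of 0 d and 1 d, with changes of 0.72, 0.82 and 0.84 (adjusted p = 0.00192, 0.000806 and 0.000429), all under the fold limit.

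**Figure D3:**
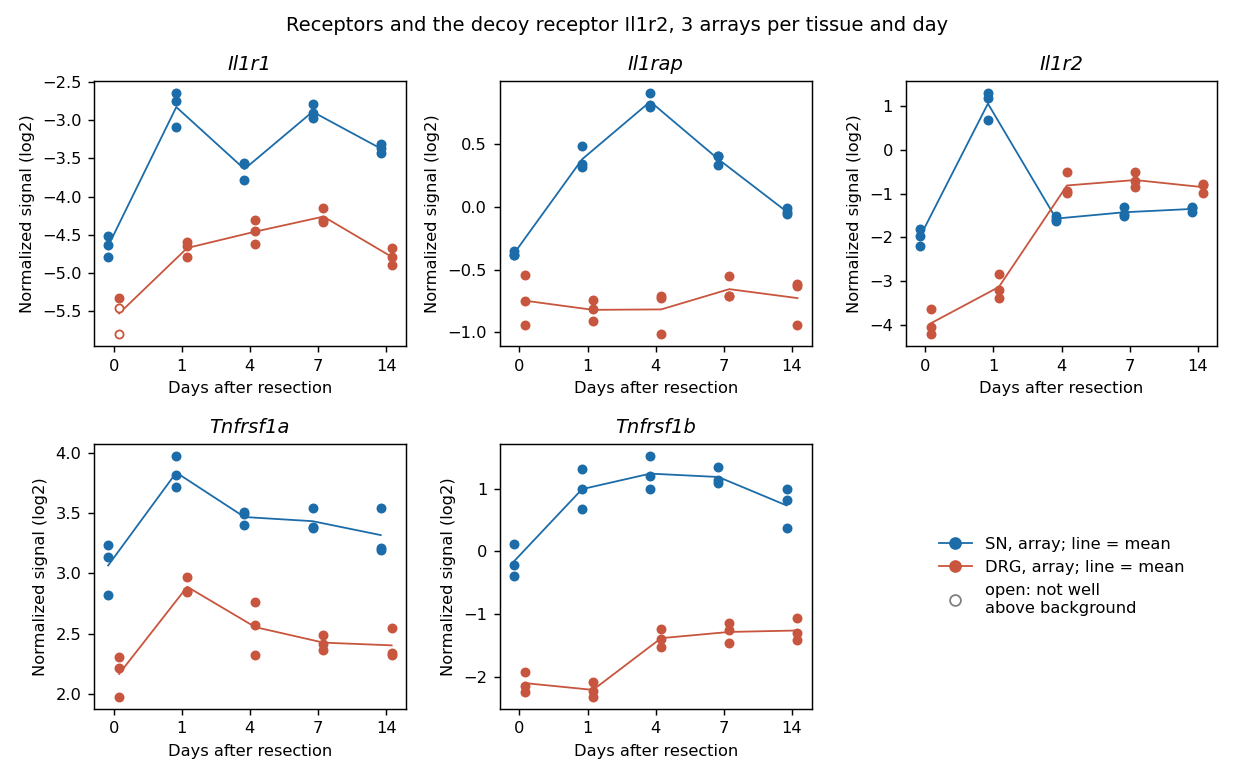
Normalized signal (log2) of the receptors on each array, by day after resection, in SN (blue) and DRG (red), with a line through the means of 3 arrays. Days are evenly spaced, open circles are arrays on which the probe was not well above background, and the axis differs between panels. Il1r2 crosses over between the tissues after 1 d, Tnfrsf1a runs in parallel in both, and Il1rap moves in SN while all DRG arrays stay between −1.01 and −0.55.

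Whether nerve and ganglia changed differently was tested directly, as the SN change minus the DRG change in 1 limma fit on all 30 arrays. On day 1 the changes of 7 of the 10 members differed, against 35.6% of 33796 probes, and all 7 were larger in SN. Il1rn differed by 4.00 (SE 0.31, adjusted p = 3.39e-09), Il1r2 by 2.22 (SE 0.24, adjusted p = 3.22e-07), Il1b by 2.15 (SE 0.55, adjusted p = 0.00433) and Il18 by 1.78 (SE 0.26, adjusted p = 1.98e-05). The differences for Tnfrsf1b (1.26), Il1r1 (0.96) and Il1rap (0.82) were smaller and had adjusted p of 0.000429, 0.000179 and 9.03e-05. For Tnfrsf1a the difference was 0.05, with a 95% interval from −0.31 to 0.40. For Tnf it was 0.80 (adjusted p = 0.0774), and 1.16 (adjusted p = 0.0038) without replicate 1 of DRG on day 0. Tnf was not well above background on day 0 in either tissue, so that its fitted differences are no bounds.

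On day 4 the changes of 5 members differed (45.3% of all probes). Those of Il1rn (2.26, SE 0.31, adjusted p = 3.68e-06), Il18 (1.64, SE 0.26, adjusted p = 2.59e-05), Il1rap (1.28, SE 0.14, adjusted p = 1.71e-07) and Tnfrsf1b (0.68, SE 0.25, adjusted p = 0.0286) were larger in SN. That of Il1r2 had the other sign, at −2.73 (SE 0.24, adjusted p = 6.24e-09). The difference for Tnfrsf1b was not called without replicate 1 (0.66) or 3 (0.57) of SN on day 0, replicate 3 of SN on day 4 (0.54), replicate 3 of DRG on day 0 (0.60) or replicate 1 of DRG on day 4 (0.61). Tnf, at 0.64, was called without replicate 1 of DRG on day 0 (1.00, adjusted p = 0.00777).

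On day 14 4 members differed (32.3% of all probes). Il1r2 (−2.47, SE 0.24, adjusted p = 4.26e-08) and Il1a (−1.78, SE 0.57, adjusted p = 0.0197) had the larger change in DRG, and Il1rn (1.01, SE 0.31, adjusted p = 0.014) and Il1r1 (0.54, SE 0.17, adjusted p = 0.0207) in SN. Il1a was not well above background on day 0 in either tissue, so that its fitted difference is no bound, and the call was lost without replicate 1 of DRG on day 0 (−1.21) or replicate 1 (−1.41) or 2 (−1.50) of SN on day 14. That for Il1r1 was lost without replicate 1 of DRG on day 0 (0.43), replicate 3 of SN on day 0 (0.46) or replicate 1 of DRG on day 14 (0.48), and the second Il1r1 probe was not called (0.81, adjusted p = 0.0598). Il1rap (0.31) was called without replicate 2 of DRG on day 0 (0.41). The 7 d changes were not compared by a test: that of Il1rn was 3.26 in SN and 1.53 in DRG, and that of Il1r2 was 0.57 in SN and 3.28 in DRG.

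Several slides held arrays of both tissues, so that these differences could also be fitted with the slide as a block, an alternative chosen after seeing the data. Il1r2 kept its sign and its call at each of the 3 days (2.79, −2.40 and −2.10, with adjusted p of 1.74e-05, 3.43e-05 and 0.000172). Il1rn kept both on day 1 (3.68, adjusted p = 1.34e-05) and 4 d (2.38, adjusted p = 0.000366), but not its call on day 14 (1.02, adjusted p = 0.0983). The calls of Il1b on day 1 (1.11, adjusted p = 0.354), Tnfrsf1b on day 4 (0.83, adjusted p = 0.067) and Il1r1 on day 14 (0.68, adjusted p = 0.0734) were lost, and Il1a, which was not measured above background on day 0, was called on day 1 (−1.34, adjusted p = 0.0135) and 4 d (−1.05, adjusted p = 0.0287).

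**Figure D4:**
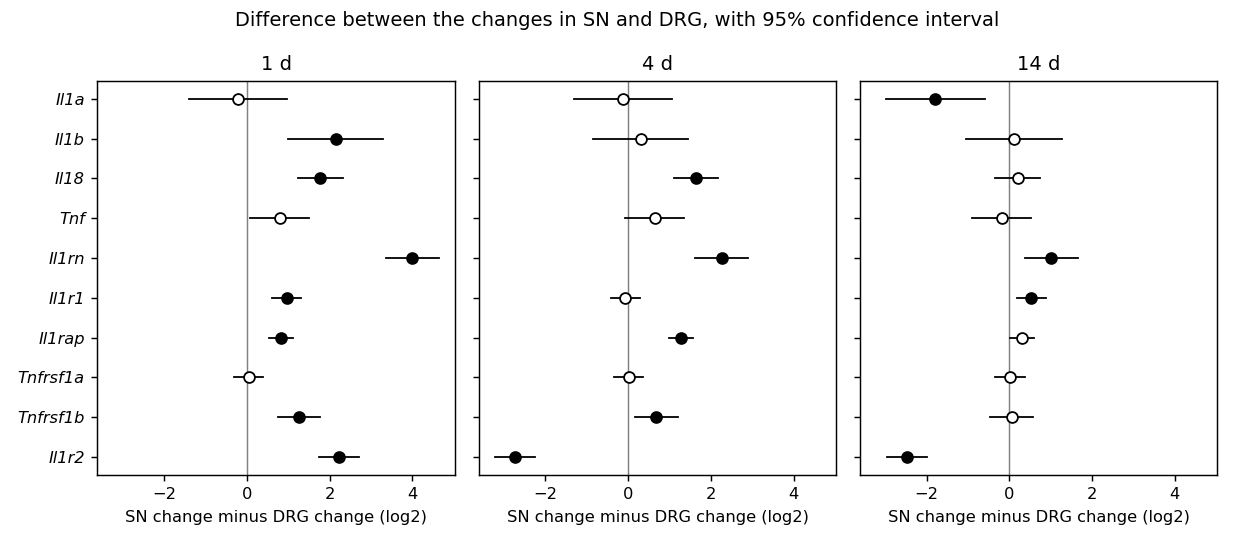
SN change minus DRG change against 0 d (log2) for each member at 1, 4 and 14 d, with 95% confidence intervals from the limma fit on 30 arrays. Filled points passed an adjusted p of 0.05. Il1rn lies to the right of 0 at all 3 days, Il1r2 moves from 2.22 on day 1 to −2.73 on day 4, and the intervals of Tnfrsf1a cover 0 throughout.

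Between neighbouring days more members passed the adjusted p than the fold limit. From 1 d to 4 d in SN, 8 of the 10 members had an adjusted limma p under 0.05 and 9 did not overlap between the days. The shares of all probes that did so are not given, here or for the later steps. Such counts therefore show nothing particular to the members. Il1b and Il1r2 were called lower, 2 of 10 members against 5.13% of all probes. From 4 d to 7 d in SN no member was called by limma (2.6% of all probes). In that step limma gave 3 members an unadjusted p under 0.05 and 2 of them, Il1r1 (0.75, adjusted p = 0.00197) and Il1rap (−0.46, adjusted p = 0.00108), an adjusted p under 0.05, and the methods' t-test called none either before or after adjustment. From 7 d to 14 d in SN 4 members had an adjusted limma p under 0.05 and only Il1a was called, as lower (0.74% of all probes). In DRG 4 members had an adjusted limma p under 0.05 from 1 d to 4 d, among them Il1r2. In DRG no member was called from 4 d to 7 d (0.177% of all probes) or from 7 d to 14 d (0.0972%), with 3 and 2 members at an unadjusted limma p under 0.05 and none by the methods' t-test. From 7 d to 14 d in DRG, Il1a was called with the slide as a block (−2.78, adjusted p = 0.000581).

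In the uninjured state 4 members were called higher in SN than in DRG, against 19.3% of 36329 probes, and none lower. The share of all probes called lower is not given, so that counts of lower calls show nothing particular to the members or markers. They were Il1r2 (3.92-fold, adjusted p = 3.2e-10), Tnfrsf1b (3.85-fold, adjusted p = 1.02e-09), Il1b (2.75-fold, adjusted p = 0.00217) and Il18 (2.05-fold, adjusted p = 3.06e-05). Il1b overlapped between the tissues, with −1.99 as the lowest SN array and −1.76 as the highest DRG array. The difference for Il18 stood at the fold limit and fell under it without replicate 1 (0.84) or 2 (0.95) of DRG or replicate 3 of SN (0.92), and the second Il18 probe was under it (0.91). Tnfrsf1a passed the limit without replicate 1 of SN (1.02). In the same comparison, 10 of 11 macrophage, 7 of 10 Schwann cell, 6 of 6 fibroblast and 6 of 7 endothelium markers were called higher in SN. Of 11 neutrophil markers 1 was called higher and 5 lower. The part of these cells in the differences of the members was not tested. Replicates 2 and 3 of DRG on day 0 shared a slide of their own and had the fewest probes well above background of all arrays, and with the slide as a block 7 members were called. The share of all probes called in that fit is not given.

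The wider pathway was counted in 8 gene lists drawn from general knowledge, but with earlier results of these data known, so that their shares are a description. Counts are given in the order 1, 4, 7 and 14 d, and stand beside 18.6%, 15.9%, 18.1% and 14.3% of all probes called higher in SN and 7.44%, 6.04%, 6.58% and 13% in DRG. The shares of all probes at an unadjusted p under 0.05 are not given. Counts at that p, here and for the cell type markers below, therefore show nothing particular to a list. Of 10 IL-1 family relatives tested in SN, 5, 4, 4 and 4 were called higher and none lower. Il1rl1, the receptor of interleukin-33, rose by 5.65 on day 1 (SE 0.32, adjusted p = 1.39e-07), and in DRG by 1.54 on day 4 (adjusted p = 0.00491). Il36b, an agonist of the same family, was well above background on 1 array of 0 d and rose by 2.95 on day 1 in SN (adjusted p = 3.76e-07). In DRG 1, 2, 2 and 2 of 9 relatives were called higher.

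Of 16 genes of the inflammasome and of IL-1 or TNF processing, 5, 7, 9 and 9 were called higher in SN. Nlrp3, an inflammasome sensor, rose by 2.32 on day 7 (SE 0.12, adjusted p = 5.04e-08) and P2rx7, an ATP-gated channel that triggers it, by 1.37 (SE 0.10, adjusted p = 4.25e-07). Elane, on this list, is also on the neutrophil list. Only Timp3, an inhibitor of the protease that sheds TNF, was called lower, on day 4, and it was also the only one called lower in DRG on day 4. In DRG 0, 1, 4 and 3 of the 16 were called higher, with 3 at an unadjusted limma p under 0.05 on day 1. Nlrp3 was among them from 4 d on (1.19, 1.73 and 1.18).

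Of 16 genes of IL-1 receptor signalling 1, 1, 0 and 0 were called higher in SN, where 11 and 8 had an unadjusted limma p under 0.05 on the last 2 days. Irak4, a kinase of the receptor complex, was the gene called on day 1 (1.48, SE 0.11, adjusted p = 6.1e-07) and on day 4 (1.19, adjusted p = 1.67e-06). The medians of the list were 0.24, 0.24, 0.24 and 0.04, beside 0.11, 0.15, 0.15 and 0.16 over all probes. In DRG the counts were 0 (5 at an unadjusted p under 0.05), 1, 1 and 1, and the 1 gene was Irak3, a kinase-dead inhibitor of the same complex (1.09, 1.18 and 1.20 at 4, 7 and 14 d).

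Of 17 genes of TNF receptor signalling 2, 7, 5 and 2 were called higher in SN, led on day 4 by the death adaptor Fadd (1.57, SE 0.11, adjusted p = 3.41e-07). In DRG 1, 3, 3 and 1 were called, and Fadd was the 1 gene on day 1 (1.70, adjusted p = 1.58e-06). Of 16 NF-kappaB genes 4, 5, 5 and 4 were called higher in SN. Among them on day 4 were the nuclear inhibitor Nfkbid, not well above background on day 0 (at least 1.67-fold, adjusted p = 1.14e-07), and Nfkbie (1.35, SE 0.09, adjusted p = 2.08e-07). In DRG no NF-kappaB gene was called on any day, with 5, 6, 7 and 9 at an unadjusted limma p under 0.05. The medians of the list there were 0.11, 0.05, 0.21 and 0.15, beside 0.09, 0.14, 0.08 and 0.13 over all probes.

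Genes known as targets of IL-1 and TNF were the list with the highest share of calls in SN on day 1, with 17, 15, 17 and 9 of 26 called higher and 0, 1, 1 and 1 lower. The lowest adjusted p on day 7 belonged to the gelatinase Mmp9, well above background on 1 array of 0 d, which rose by 5.13 (SE 0.28, adjusted p = 5.36e-08), and the collagenase Mmp13, which rose by 4.17 (SE 0.23, adjusted p = 6.47e-08). The gene called lower from 4 d on was Lcn2, which encodes lipocalin-2 (−1.79 on day 7, SE 0.19, adjusted p = 7.23e-06). In DRG 5, 8, 6 and 6 of 23 were called higher and none lower, and Mmp9 (−0.30 on day 7, adjusted p = 0.835) and Mmp13 (−2.02, adjusted p = 0.108) were not among them.

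Of 13 other TNF superfamily ligands 4, 5, 7 and 6 were called higher in SN and 2, 1, 1 and 1 lower. Faslg, the ligand of the death receptor Fas, rose by 3.14 on day 7 (SE 0.21, adjusted p = 2.29e-07). Tnfsf11, whose product drives osteoclast formation, was not well above background on day 0 and was at least 3.21-fold higher on day 7 (adjusted p = 1.24e-06). Tnfsf15 fell by 1.78 (SE 0.10, adjusted p = 6.07e-08). Of 18 other receptors 8, 9, 10 and 7 were called higher and 0, 0, 1 and 1 lower, with Tnfrsf12a (1.90, SE 0.15, adjusted p = 6.2e-07) and Tnfrsf14 (3.89, SE 0.33, adjusted p = 1.19e-06) higher on day 7 and Tnfrsf11b, a decoy receptor of the Tnfsf11 product, lower (−1.06, SE 0.24, adjusted p = 0.00234). In DRG 0, 1, 3 and 3 of 12 ligands and 1, 0, 2 and 4 of 16 receptors were called higher. Where the count was 0, 6 ligands on day 1 and 7 receptors on day 4 had an unadjusted limma p under 0.05.

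**Figure D5:**
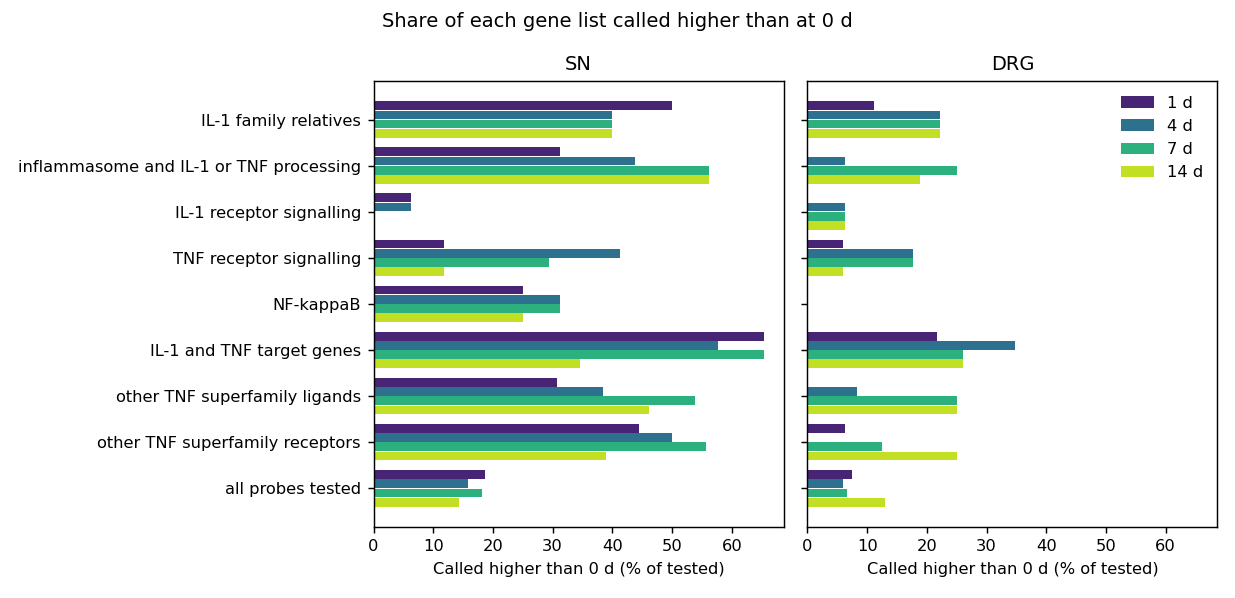
Share of the tested genes of each pathway list that were called higher than on day 0 (percent), at 1, 4, 7 and 14 d in SN (left) and DRG (right), with the share of all probes tested at the bottom. In SN the target genes reach 17 of 26 on day 1 and 7 d, and the genes of IL-1 receptor signalling are at 1 of 16 or 0.

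The counts of the lists were also taken after quantile normalization, a check chosen after seeing the data. No gene that had been called changed its sign. Most counts that moved by over 1.5 times became smaller, in the same limma fit. Of the other TNF receptors 3 in place of 8 were called higher in SN on day 1, and of the inflammasome genes 3 in place of 5 on day 1 and 5 in place of 9 on day 14. In DRG the target genes called higher were 3, 5, 5 and 3 in place of 5, 8, 6 and 6, the other TNF ligands 0, 0, 1 and 1 in place of 0, 1, 3 and 3, and the inflammasome genes 0, 0, 4 and 1 in place of 0, 1, 4 and 3. The other TNF receptors called higher in DRG were 1 in place of 2 on day 7 and 2 in place of 4 on day 14. The IL-1 family relatives called higher in DRG were 1 in place of 2 on each of days 4, 7 and 14. Of TNF receptor signalling 3 in place of 2 were called higher in SN on day 1. Irak3 was no longer called in DRG on any day, nor was Irak4 in SN on day 4. Of the macrophage markers in DRG 2 in place of 4 were called on day 4, and of the neutrophil markers 0, 1 and 2 in place of 1, 3 and 4 from day 4 on. Of the T cell markers in DRG 0, 1, 4 and 3 in place of 1, 2, 5 and 5 were called higher.

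Cell type markers were counted on the same days. Over all probes in SN, 18.6%, 15.9%, 18.1% and 14.3% were called higher at 1, 4, 7 and 14 d. The shares called lower in SN were 3.43%, 6.78%, 6.81% and 5.46%. In DRG they were 7.44%, 6.04%, 6.58% and 13% higher and 0.169%, 0.506%, 0.326% and 0.46% lower. In SN, 9, 11, 9 and 8 of 11 macrophage markers were called higher at 1, 4, 7 and 14 d, and their mean signal per array went from between 0.87 and 1.07 on day 0 to between 2.32 and 2.72 on day 1 and between 2.73 and 3.05 on day 4. Of 9 T cell markers 6 were called higher on day 1 and all 9 on later days. Schwann cell markers went the other way, with 2, 6, 6 and 5 of 10 called lower. All 7 skeletal muscle markers were called lower on day 4 and 7 d, with a mean signal between 3.40 and 7.47 on the arrays of 0 d and between −1.25 and 1.35 on day 4. In DRG, 0, 4, 7 and 6 of the macrophage markers were called higher, with 2 at an unadjusted limma p under 0.05 on day 1. Sensory neuron markers had a mean signal between 5.21 and 5.25 in DRG on day 0, and between −3.70 and −3.31 in SN. Schwann cell markers in DRG were called lower for 1 gene on day 7 only, with 2, 4 and 4 at an unadjusted limma p under 0.05 on the other days. The part of these shifts in the changes of the members was not tested.

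The genes whose SN pattern was most like that of a member are given by Pearson's r over the 15 SN arrays, as a description, since all points share the same days and slides. For Il18 they were Mpeg1 (r = 0.99) and Aif1 (r = 0.989), both known from macrophages. For Il1rn Fgr, a kinase of myeloid cells, is given (r = 0.984), and for Tnfrsf1b they were Plcg2 (r = 0.981) and Tlr6 (r = 0.979). For Tnf they were Ifnb1 (r = 0.965) and Il10 (r = 0.963), and for Il1b Ptpns1l3 (r = 0.956) and Slpi (r = 0.952), the latter an inhibitor of neutrophil proteases. The closest genes for Il1a (Ap2b1, r = 0.969), Il1r1 (Ranbp1, r = 0.974), Il1rap (Glod5, r = 0.98) and Tnfrsf1a (Rbmxl1, r = 0.955) were not on any list. Il1a and Tnf were well above background on no SN array of 0 d, so that their r rests in part on such signals. The levels of Ifnb1 and Il10 are not given.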

How the data were processed

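Total RNA of SN and DRG was labelled with Cy3 and hybridised to single-colour Agilent rat arrays. The scanner intensities deposited by the authors came from Agilent Feature Extraction, which per the file headers subtracts the background and removes the spatial trend within each array. The log2 values in the authors' own table were made with GeneSpring and were used as an alternative only: all columns had a median of 7.7495, each correlated best with its own array (r from 0.9932 to 0.9994), and their exact steps and centring were not given in the sources used here. The labels name a mirVana kit for RNA extraction and the study's methods Trizol.

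From the intensities, control spots and outlier flags were left out, spots of a probe were averaged, log2 was taken and the 75th percentile of the array subtracted. A probe was well above background on an array where at least 50% of its spots were, and was tested where it was so on all 3 arrays of at least 1 group. limma 3.58.1 in R 4.3.3 (lmFit and eBayes, Benjamini-Hochberg over all probes tested) was fitted on the 15 arrays of a tissue for days, and on all 30 arrays for differences between tissues. The fit was tested on simulated data with known changes. A change was called at an adjusted p under 0.05 and over 2-fold, a difference between tissues at the adjusted p alone. A bound ("at least") sets the mean of the later day against, on each array of 0 d, the higher of the probe's own signal and the lowest signal of any probe well above background. The adjusted p beside a bound belongs to the fitted change, and the bound itself was not tested. Precision is limited by the number of arrays. Between 26914 and 35541 of 41012 probes were well above background on an array, and no spot was saturated. The arrays lay on 8 slides and were scanned on 3 dates. No column of per-sample values was left without a sample (0 columns).

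Symbols were updated through RefSeq accessions (GRCr8), with 16336 probes matched and 3741 symbols changed, and members were found by the array's own names. The members and lists were chosen with earlier results of these data known. Named were all members, for each pathway list up to 2 genes called higher and 2 called lower with the lowest adjusted p on the day with most calls in SN, and for each member the 2 genes with the highest Pearson r over SN arrays. Csf3r, Cxcr2, Fcnb, Ltf, Timp3 and Irak3, and list genes given on other days or in DRG, were named after their values were seen. Alternatives were quantile normalization, normexp (offset 50) with quantile normalization, the percentile over probes well above background on all arrays, the authors' values, other filters, the mean over probes, the methods' t-test, only the groups compared, the slide or replicate number as a block, and leaving out each array. Tables were handled with Python 3.11.15 and pandas 2.3.3.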

Additional observations from a re-analysis of the deposited data

Results flagged for a closer look

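The changes of 16 member and day combinations differed between SN and DRG by a test of the difference itself, in 1 limma fit of all 30 arrays. They were 7, 5 and 4 of the 10 members on days 1, 4 and 14, beside 35.6%, 45.3% and 32.3% of all probes, so that on days 4 and 14 the members lay close to the share of all probes. No test for outlying arrays was run on the groups of 3, but each array was left out in turn, with the calls that changed given above. On day 1 the SN change was larger by 2.15 for Il1b, 1.78 for Il18, 4.00 for Il1rn, 0.96 for Il1r1, 0.82 for Il1rap, 1.26 for Tnfrsf1b and 2.22 for Il1r2 on the log2 scale. On day 4 it was larger by 1.64 for Il18, 2.26 for Il1rn, 1.28 for Il1rap and 0.68 for Tnfrsf1b, and the difference for Il1r2 was −2.73. On day 14 the differences were −1.78 for Il1a, 1.01 for Il1rn, 0.54 for Il1r1 and −2.47 for Il1r2. Il1r2 was the member whose difference was called with both signs. Il1a was well above background on no array of 0 d and on 1 of 3 SN arrays of 14 d.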

How the results depend on the processing

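No change of a member turned its direction while called. Of 2144 values under alternatives other than leaving out an array, 2059 had the same outcome as the main fit, 77 lost a call and 8 gained one. Of 3300 with an array left out, 3237 had the same outcome, 45 lost a call and 18 gained one. Changes called in neither fit are among the same outcomes, so that these totals do not give the share of calls kept. Counts of members called that moved by over 1.5 times were as follows. With normexp and quantile normalization together they were 5 in place of 8 (SN 1 d against 0 d), 4 in place of 7 (SN 7 d), 0 in place of 1 (DRG 1 d) and 1 in place of 5 (DRG 4 d), and for the steps 1 in place of 2 (SN 1 d to 4 d) and 0 in place of 1 (SN 7 d to 14 d). The SN step from 1 d to 4 d also gave 1 by the methods' t-test, before and after adjustment, and with the slide as a random or fixed block. The SN step from 7 d to 14 d also gave 0 by the t-test in either form, in a fit of only the groups compared, with every probe required above background in either group, and with a random slide block. That filter gave 0 for DRG 1 d, 3 for DRG 4 d and 2 in place of 4 for the tissue difference on day 14, where probes dim at 0 d go untested by construction. DRG 4 d gave 3 by quantile normalization and by the authors' values, and the adjusted t-test gave 0, 2 and 3 in place of 1, 5 and 6 for DRG 1, 4 and 14 d. The tissue difference on day 14 gave 2 in a fit of only the groups compared. The slide as a fixed block, chosen after seeing the data, gave 2 there as well, 1 in place of 0 for DRG 7 d to 14 d, and 7 in place of 4 for SN against DRG at 0 d. Unless stated, the cause was not tested.

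With an array left out, the counts ran from 7 to 8, 6 to 8, 7 to 7 and 4 to 7 in SN on the 4 days, and from 1 to 1, 3 to 5, 6 to 7 and 4 to 6 in DRG. Those of the SN steps ran from 1 to 3, 0 to 0 and 0 to 1, those of the tissue differences from 7 to 8, 4 to 6 and 2 to 5, and that at 0 d from 3 to 5. With the replicate number as a replicate block the counts were the same except for DRG 4 d, with 4 in place of 5 (Il1b, adjusted p = 0.0728 in limma). The numbers do not pair the arrays: same-numbered arrays of a tissue correlated in their deviations at a median of −0.04 (from −0.33 to 0.32).

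Quantile normalization moved the median change of all probes in SN on day 1 from 0.11 to −0.08, and its calls over all probes from 6553 higher and 1206 lower to 4275 and 2521. Il1a and Tnf lie near background, where 3 arrays per group give bounds at best, and day 0 was scanned apart from the later days.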
